A study of Mus musculus with 6 samples.

Results

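A set of 9 genes that mark alveolar type 1 cells was followed in lung RNA of 2 kinds of F1 mice: Ager, Hopx, Pdpn, Clic5, Cav1, Rtkn2, Akap5, Emp2 and Cldn18. They were taken as every probe set that the array platform's annotation pairs with 1 of these symbols alone, which gave 19 probe sets of the 45037 that are not controls. All 19 passed the filter on low signal and stood among the 27022 probe sets tested. Total RNA came from whole lung of adult female mice. AKR_F1 mice had AKR/J and FVB/NJ parents and DBA_F1 mice had DBA/2J and FVB/NJ parents, so animals of both groups carried 1 chromosome set of the inbred strain FVB/NJ and differed in the other set. Each group has 3 Affymetrix arrays. The study asked which genes differ between these genotypes without any treatment. Nothing in the labels says whether each array came from its own animal, so the tests measure the difference against the spread between these arrays, which may be technical.

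Alveolar type 1 cells are the broad, very thin cells that cover most of the gas exchange surface of the lung. They share a basement membrane with the capillary endothelium, form tight junctions with the surfactant-making type 2 cells, and are rich in caveolae, the small flask-shaped pits of the cell membrane. The 9 genes are used as their markers, but Cav1 is also strong in endothelium and adipocytes, Pdpn in lymphatic endothelium and mesothelium, and a form of Cldn18 is made in the stomach. In whole-lung RNA, fewer cells of a type and less RNA per cell cannot be told apart.

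Most of the type 1 genes had slightly higher signal in AKR_F1 lung, by an amount that did not pass the test for any probe set. Of the 19 probe sets, 17 had a higher mean in AKR_F1, against 57.4% of all tested probe sets, and 2, those of Pdpn and Cav1, had a lower one. In the limma fit over all probe sets, 0 of the 19 were called at a Benjamini-Hochberg adjusted p under 0.05, where 2.62% of all tested probe sets were called. On simulated data the same fit called 2 of 50 changes of 0.25 log2, so differences of this size can be missed. Those changes were put on probe sets drawn from all those tested, and 117 were called in all, against 707 in the data. The median SE was 0.055 for the 9 genes and 0.078 for all tested genes. The simulation therefore does not give the rate at which changes in these 9 genes would be missed. Without AKR_F1 replicate 3, 3 of the 19 were called (1 each of Clic5, Rtkn2 and Akap5), where 4.33% of all were called. At an unadjusted p under 0.05 there were 9 of 19, against 18.4% of all. By the brightest probe set of each gene, the differences of the 9 genes (AKR_F1 minus DBA_F1, log2) ran from -0.11 to 0.26 with a median of 0.17. The median over all 13202 tested genes was 0.015, with an upper quartile of 0.098. The groups did not overlap, with AKR_F1 higher, for 7 of the 19 probe sets, against 14.6% of all tested, and with AKR_F1 lower for 1, against 9.02%.

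**Figure D1:**
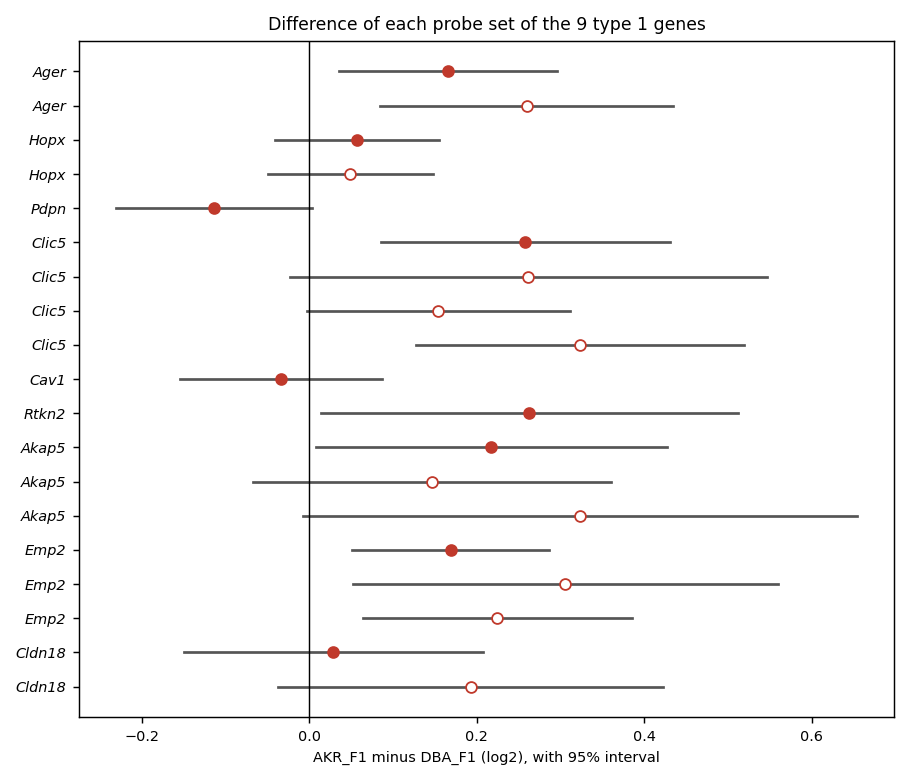
Difference between AKR_F1 and DBA_F1 lung (log2, horizontal axis) for each of the 19 probe sets, with the 95% interval of the limma fit as a line. Filled points are the brightest probe set of a gene. Differences run from -0.11 (Pdpn) to 0.32 (Clic5 and Akap5). Every interval of Hopx, Pdpn, Cav1 and Cldn18 includes 0, as do some of those of Clic5 and Akap5.

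The arrays themselves were evenly scaled, with medians of 5.46 to 5.49 log2, and the 3'-to-5' difference of the Gapdh control probe sets was -0.31 to -0.29 on all 6. Markers of other tissues differed far more between arrays. Values of a group are given in the order of its replicates throughout. The squamous epithelium list, which holds the keratin Krt13, averaged 4.77, 4.66 and 8.94 log2 in AKR_F1 against 8.66, 9.19 and 8.51 log2 in DBA_F1. Skeletal muscle genes had 5.73, 5.21 and 10.03 in AKR_F1 and 9.28, 9.82 and 9.37 in DBA_F1, so AKR_F1 replicate 3 lay with the DBA_F1 arrays in both lists. Adipocyte genes averaged 7.91, 7.04 and 6.93 in AKR_F1 and 9.18, 9.70 and 8.66 in DBA_F1, where the groups did not overlap. Over all tested probe sets, AKR_F1 replicate 3 was also nearer to the DBA_F1 arrays (correlations of 0.984 to 0.986). Its correlations with AKR_F1 replicates 1 and 2 were 0.975 and 0.976, while those 2 arrays correlated at 0.995. The mean of the 9 type 1 genes was 11.90, 11.87 and 11.72 in AKR_F1 and 11.75, 11.65 and 11.76 in DBA_F1. AKR_F1 replicates 1 and 2 were the highest, and AKR_F1 replicate 3 lay inside the range of the DBA_F1 arrays. On 18 of the 19 probe sets AKR_F1 replicate 3 was below both other AKR_F1 arrays, and on 7 it was still above every DBA_F1 array. The part of the other tissues in the type 1 differences was not tested beyond these fits. With the squamous mean as a covariate the median of the 9 genes was 0.034, and for AKR_F1 replicate 3 alone against DBA_F1 it was 0.031. These 2 fits are not separate checks. The squamous mean was low only on AKR_F1 replicates 1 and 2, so this covariate leaves mainly AKR_F1 replicate 3 against DBA_F1. With the adipocyte mean as a covariate the median was 0.080, and single genes moved both ways, with Ager at 0.080 and Cldn18 at -0.071 but Clic5 at 0.40, Akap5 at 0.47 and Rtkn2 at 0.33.

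**Figure D2:**
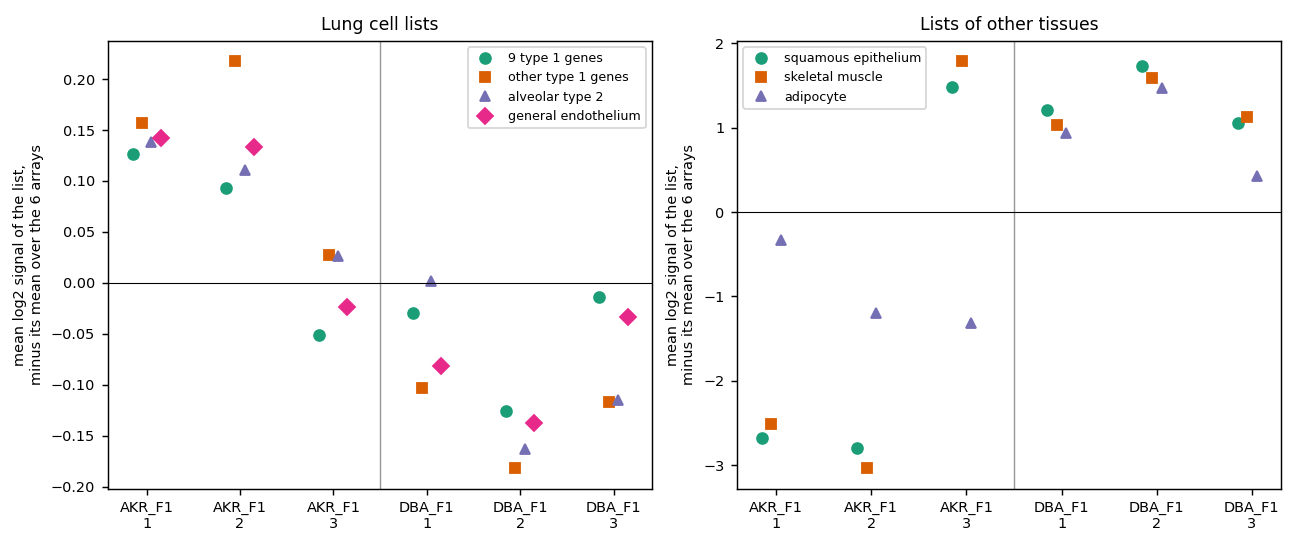
Mean log2 signal of each gene list on each array, less the mean of that list over the 6 arrays, for lung cell lists (left) and lists of other tissues (right, on a wider axis). AKR_F1 replicates 1 and 2 are high in the lung lists and low in squamous and muscle genes, while AKR_F1 replicate 3 lies with the DBA_F1 arrays in squamous and muscle genes.

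Ager encodes the receptor for advanced glycation end products, an immunoglobulin-family receptor of the basal surface of type 1 cells that binds HMGB1 and S100 proteins. Its brightest probe set had 13.93, 13.99 and 13.84 log2 in AKR_F1 and 13.78, 13.67 and 13.81 log2 in DBA_F1. Every AKR_F1 array was above every DBA_F1 array, although by only a narrow margin between AKR_F1 replicate 3 and DBA_F1 replicate 3. The difference was 0.17 ± 0.055 (SE), with a 95% interval of 0.036 to 0.30 and a limma adjusted p of 0.182. The second Ager probe set had 13.03, 12.96 and 12.84 log2 in AKR_F1 and 12.72, 12.55 and 12.78 log2 in DBA_F1. Again the groups did not overlap, and the difference was 0.26 ± 0.074 (adjusted p = 0.134), or 1.20-fold.

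Clic5, Rtkn2 and Akap5 act at the cell cortex and in signalling. Clic5 is a chloride intracellular channel family protein that associates with the actin cytoskeleton. By its brightest probe set it had 11.81, 11.76 and 11.58 log2 in AKR_F1 and 11.56, 11.40 and 11.42 log2 in DBA_F1. The groups did not overlap, and the difference was 0.26 ± 0.073 (limma adjusted p = 0.131). A dimmer probe set of Clic5 had the smallest adjusted p of all 19, with 10.78, 10.62 and 10.58 log2 in AKR_F1 and 10.50, 10.27 and 10.25 log2 in DBA_F1. It differed by 0.32 ± 0.083 (adjusted p = 0.107), a 1.25-fold difference. It was called when the replicate number was a block (adjusted p = 0.0449, where 1.99% of all probe sets were called). Same-numbered arrays did not deviate together, so the numbers were not taken as pairs and this call adds no support. The remaining pair of Clic5 probe sets differed by 0.26 and 0.15, and in both the groups overlapped.

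Rtkn2 encodes rhotekin 2. Its only probe set had 9.87, 9.83 and 9.50 log2 in AKR_F1 and 9.48, 9.36 and 9.57 log2 in DBA_F1. AKR_F1 replicates 1 and 2 stood apart from all other arrays, while AKR_F1 replicate 3 lay between DBA_F1 values. The difference of 0.26 ± 0.11 had a limma adjusted p of 0.249, and AKR_F1 replicate 3 was 0.35 log2 below the mean of the other AKR_F1 arrays.

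Akap5 encodes an anchoring protein that holds protein kinase A and calcineurin near membrane targets. The brightest of its 3 probe sets had 9.97, 9.76 and 9.63 log2 in AKR_F1 and 9.63, 9.51 and 9.56 log2 in DBA_F1. AKR_F1 replicate 3 fell just within the DBA_F1 range, and the difference was 0.22 ± 0.089 (limma adjusted p = 0.257), or 0.13 without AKR_F1 replicate 1. The other Akap5 probe sets differed by 0.15 ± 0.091 and 0.32 ± 0.14. On the dimmest of them AKR_F1 replicate 3 was 0.48 log2 below the mean of AKR_F1 replicates 1 and 2, the widest such gap among the 19.

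Emp2, a small tetraspan protein of the cell membrane, had 3 probe sets, and all 3 separated the groups. The brightest had 12.71, 12.69 and 12.60 log2 in AKR_F1 and 12.54, 12.42 and 12.52 log2 in DBA_F1, a difference of 0.17 ± 0.050 (limma adjusted p = 0.144). The next had 11.47, 11.41 and 11.32 log2 in AKR_F1 and 11.30, 11.12 and 11.09 log2 in DBA_F1, a difference of 0.22 ± 0.068 (adjusted p = 0.151). In the dimmest set the difference was 0.31 ± 0.11 (adjusted p = 0.202). For AKR_F1 replicate 3 alone, the brightest Emp2 set stood 0.10 above the DBA_F1 mean, against 0.20 for AKR_F1 replicates 1 and 2.

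Cldn18, a claudin of alveolar tight junctions, gave different values by its 2 probe sets. The brighter had 11.74, 11.70 and 11.57 log2 in AKR_F1 and 11.66, 11.51 and 11.76 log2 in DBA_F1, with wide overlap and a difference of 0.029 ± 0.076 (limma adjusted p = 0.881). The dimmer had 11.18, 10.93 and 10.97 log2 in AKR_F1 and 11.004, 10.79 and 10.69 log2 in DBA_F1, a difference of 0.19 ± 0.097 (adjusted p = 0.346). DBA_F1 replicate 3 was the highest of the 6 arrays in the brighter set and the lowest in the dimmer one. The sign of the brighter set was not stable: it was -0.039 without DBA_F1 replicate 2. The 3 gastric mucosa genes with measurable signal (Atp4b, Gkn2 and Tff1) averaged 6.33, 6.10 and 6.15 log2 in AKR_F1 and 6.22, 6.23 and 6.25 log2 in DBA_F1, and 4 of the 7 on that list did not pass the filter on low signal.

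Hopx and Cav1 showed little difference. Hopx encodes a small homeodomain protein that does not bind DNA itself. Its brightest probe set had 13.41, 13.42 and 13.32 log2 in AKR_F1 and 13.31, 13.31 and 13.36 log2 in DBA_F1, a difference of 0.057 with a 95% interval of -0.041 to 0.16. Its second set differed by 0.049, with an interval of -0.049 to 0.15. Cav1, the main structural protein of caveolae, had 12.78, 12.71 and 12.67 log2 in AKR_F1 and 12.72, 12.70 and 12.83 log2 in DBA_F1. The groups overlapped throughout, and the interval of its difference (-0.034) ran from -0.15 to 0.087. These intervals leave out a difference above 0.16 log2 for either set of Hopx and above 0.087 log2 toward AKR_F1 for Cav1.

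Pdpn, which encodes the mucin-type membrane glycoprotein podoplanin (T1-alpha), was the only one of the 9 genes with AKR_F1 below DBA_F1 on every array. It had 10.90, 10.97 and 10.82 log2 in AKR_F1 and 11.03, 10.98 and 11.02 log2 in DBA_F1. AKR_F1 replicate 2 and DBA_F1 replicate 2 were almost level. The difference was -0.11 ± 0.050 (limma adjusted p = 0.284), with an interval of -0.23 to 0.0037, and it was -0.075 without AKR_F1 replicate 3. Beside it, the lymphatic endothelium markers with measurable signal (4 of 6) averaged 7.99, 8.05 and 8.04 log2 in AKR_F1 and 7.87, 8.07 and 8.20 log2 in DBA_F1. The mesothelium list (6 of 6) averaged 7.28, 7.26 and 7.25 log2 in AKR_F1 and 7.27, 7.35 and 7.26 log2 in DBA_F1. Both lists overlapped between the groups, and neither had a called gene. Their part in the Pdpn value was not tested further.

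**Figure D3:**
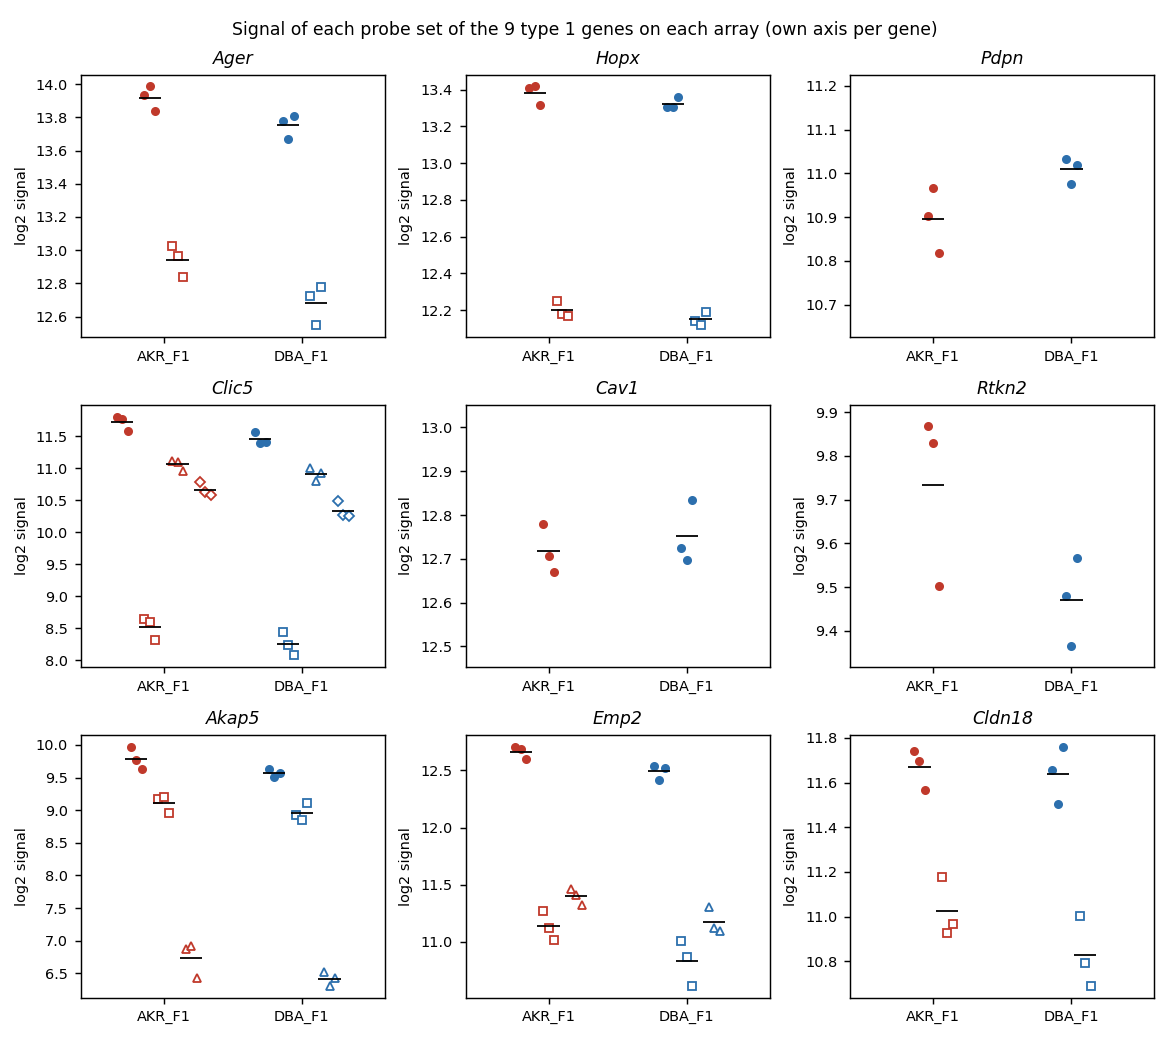
Log2 signal of every probe set of the 9 genes on each of the 3 AKR_F1 arrays (red) and the 3 DBA_F1 arrays (blue), with the group mean as a black bar. Each marker shape is a probe set, the filled one is the brightest, and each gene has its own axis. All 3 Emp2 sets and both Ager sets separate the groups with AKR_F1 higher, and Pdpn separates them with AKR_F1 lower.

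Promoter sequence upstream of the annotated start is shown for 3 genes, Emp2, Pdpn and Cldn18. Every Emp2 probe set separated the groups with AKR_F1 higher, and the Pdpn set separated them with AKR_F1 lower. Both Cldn18 sets had a higher mean in AKR_F1 and overlapped between the groups. No probe set of these genes was called, and the genes were not tested against each other. The sequences are RefSeq's, build GRCm38.p6, 250 bases that end just before the start, in lower case. They come from this reference build and were not read from the mice studied, whose alleles may differ. Capitals mark matches to 4 short motifs on either strand. The TEAD motif was searched as GGAATG. For NKX2-1 the letters were CAAGTG. The forkhead motif was searched as TGTTTAC. For GATA factors the letters were AGATAA. No matches overlapped. The Emp2 window is chr16:10313969-10314218, the Pdpn window chr4:143299565-143299814 and the Cldn18 window chr9:99717268-99717517, all on the minus strand.
Emp2: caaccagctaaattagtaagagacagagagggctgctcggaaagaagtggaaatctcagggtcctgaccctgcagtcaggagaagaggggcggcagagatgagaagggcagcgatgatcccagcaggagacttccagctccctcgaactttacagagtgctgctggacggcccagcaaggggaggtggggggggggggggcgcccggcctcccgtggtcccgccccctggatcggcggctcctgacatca
Pdpn: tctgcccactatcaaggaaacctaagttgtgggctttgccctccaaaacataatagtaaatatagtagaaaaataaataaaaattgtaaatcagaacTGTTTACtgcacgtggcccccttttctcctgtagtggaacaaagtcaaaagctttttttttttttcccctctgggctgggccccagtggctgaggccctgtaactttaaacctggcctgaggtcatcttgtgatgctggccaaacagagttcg
Cldn18: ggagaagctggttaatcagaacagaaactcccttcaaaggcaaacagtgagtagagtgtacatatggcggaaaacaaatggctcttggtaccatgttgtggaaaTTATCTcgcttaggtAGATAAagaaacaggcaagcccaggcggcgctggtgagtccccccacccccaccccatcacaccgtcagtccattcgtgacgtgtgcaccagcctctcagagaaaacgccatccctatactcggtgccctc

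RefSeq's table held 11 start sites for 8 of the 9 genes, all but Rtkn2. The forkhead letters were found in the Pdpn window, the GATA letters in the Cldn18 window shown, at 2 places and on both strands, and the NKX2-1 letters at the other Cldn18 start, 98 bases before it. None of the 11 windows held the TEAD letters. Of all 32851 windows of this length, 3.17% hold the forkhead letters, 9.99% the GATA letters, 11.6% the NKX2-1 letters and 12.6% the TEAD letters. A match here describes letters only.

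Among 22 further genes of type 1 cells, all measured, 3 were called higher in AKR_F1 and 0 lower, against 1.42% and 1.06% of all tested genes. These 22 genes had a median difference of 0.25, and for 14 of them every AKR_F1 array was above every DBA_F1 array, against 14.2% of all tested genes. This list, like the others here, was chosen with earlier results of these data known. Its counts beside the shares of all genes are a description and not an independent test. The called genes were Col4a3, Fam189a2 and Lama3. Col4a3 encodes a type IV collagen chain of the alveolar basement membrane. It had 9.72, 9.81 and 9.54 log2 in AKR_F1 and 8.85, 8.86 and 8.88 log2 in DBA_F1. All 3 AKR_F1 arrays lay well above the closely spaced DBA_F1 arrays, a difference of 0.83 ± 0.072 (limma adjusted p = 0.00293). The second probe set of Col4a3 differed by 0.29 ± 0.072 and was not called (adjusted p = 0.0993).

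Fam189a2 had 9.59, 9.64 and 9.48 log2 in AKR_F1 and 9.05, 9.01 and 9.21 log2 in DBA_F1, a difference of 0.48 ± 0.071 (limma adjusted p = 0.0212). Its other probe sets differed by 0.56 and 0.64 and were both called, so that all 3 gave the same direction. Lama3, a laminin chain of epithelial basement membranes, had 9.35, 9.33 and 9.20 log2 in AKR_F1 and 8.95, 8.72 and 8.77 log2 in DBA_F1, a difference of 0.48 ± 0.076 (adjusted p = 0.0266). Spock2, which encodes the matrix proteoglycan testican-2, differed by 0.42 ± 0.093 (adjusted p = 0.0709) by its brightest set, while its dimmer set was called at 0.59 ± 0.10 (adjusted p = 0.0332). Counted by probe set, 8 of the 42 sets of these 22 genes were called, all with AKR_F1 higher, where 2.62% of all probe sets were called in either direction. Without AKR_F1 replicate 3 the count of called genes was 8, in a fit that called 4.33% of all probe sets. It was 1, Col4a3, without AKR_F1 replicate 1, AKR_F1 replicate 2 or DBA_F1 replicate 2, in fits that called 0.733%, 0.736% and 0.921% of all probe sets. With the squamous mean as a covariate it was 1, and Fam189a2 (adjusted p = 0.138) and Lama3 (0.167) were not called. Fam189a2 was also lost without DBA_F1 replicate 1 (0.0558) and Lama3 without DBA_F1 replicate 3 (0.0614). With the replicate number as a block Fam189a2 had an adjusted p of 0.0626.

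The lists of partners of the 9 genes gave 2 called genes by the brightest probe set, both with AKR_F1 higher, where 1.42% of all tested genes were called higher and 1.06% lower. Of 7 measured caveola partners of Cav1, 1 was called. Cavin1, a coat protein of caveolae, had 10.46, 10.44 and 10.30 log2 in AKR_F1 and 9.99, 10.05 and 10.07 log2 in DBA_F1. The difference was 0.36 ± 0.057 (limma adjusted p = 0.0267). A dimmer Cavin1 set was also called, at 0.69 ± 0.11 (adjusted p = 0.0289), and the dimmest was not, at 0.12 ± 0.090 (adjusted p = 0.544). Ehd2, which binds the caveolar neck, differed by 0.22 ± 0.091 (adjusted p = 0.261). The median of the 7 was -0.010, and Cav2, the caveolin that pairs with Cav1, differed by -0.010 as well. The 6 measured genes on the list of Ager ligands were all S100 genes, with a median of -0.25, and 1 was called, S100a6, with 11.79, 11.84 and 11.75 log2 in AKR_F1 and 11.57, 11.44 and 11.47 log2 in DBA_F1 (0.30 ± 0.049, adjusted p = 0.0299). Of these genes 2 had a positive and 4 a negative difference. The negative ones included S100a9 (-0.53 ± 0.52) and S100a8 (-0.36 ± 0.51), which varied widely between arrays, and S100b (-0.45 ± 0.21), with signal near the filter level. By the brightest probe set, neither Cavin1 nor S100a6 was called without AKR_F1 replicate 1, AKR_F1 replicate 2 or DBA_F1 replicate 2 (adjusted p of 0.104 to 0.132). With the squamous covariate both missed the threshold (0.157 and 0.192). Cavin1 was also lost without DBA_F1 replicate 1 (0.0643), and S100a6 without DBA_F1 replicate 3 (0.0656). Both were lost as well with the replicate number as a block (0.0713 and 0.0727) and with no trend in eBayes (0.0518 and 0.0694). Of 9 measured tight junction genes 0 were called. Cldn4 had -0.35 ± 0.14 (adjusted p = 0.253) and the tricellular junction protein Marveld2 0.26 ± 0.12 (adjusted p = 0.296), with a list median of 0.032. Cldn4 was at -0.077 with the squamous covariate and -0.085 for AKR_F1 replicate 3 alone, and Marveld2 was at 0.15 without DBA_F1 replicate 2.

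The regulator list, built on the Hippo pathway factors and lung transcription factors that act in type 1 cells, had 1 called gene of 11 measured, higher in AKR_F1 (1.42% of all tested genes), and a median of 0.13. Tead1, a DNA-binding partner of the co-activators YAP and TAZ, had 9.74, 9.76 and 9.75 log2 in AKR_F1 and 9.42, 9.43 and 9.41 log2 in DBA_F1. Here AKR_F1 replicate 3 was level with AKR_F1 replicates 1 and 2, unlike in most of the type 1 genes. The difference was 0.33 ± 0.040 (limma adjusted p = 0.00995), and it ran from 0.32 to 0.34 under all 17 alternatives. Tead1 was not called without AKR_F1 replicate 1 (adjusted p = 0.0636) or AKR_F1 replicate 2 (0.0594), nor with the squamous covariate (0.0748). The second Tead1 probe set, with signal of 5.08 to 5.28 log2 near the filter level of 4.72, differed by 0.046 ± 0.084 (adjusted p = 0.818). The kinase Lats2 differed by 0.23 ± 0.067 (adjusted p = 0.145), Yap1 by 0.20 ± 0.072 (adjusted p = 0.218) and the transcription factor Gata6 by 0.28 ± 0.11 (adjusted p = 0.242). With Tead1 these were the 4 of 11 genes in which every AKR_F1 array was above every DBA_F1 array, against 14.2% of all tested genes. These 4 were named for their small p, so the separation is a description only. Yap1 differed by 0.12 without AKR_F1 replicate 2 and Gata6 by 0.18 without DBA_F1 replicate 2, and with the squamous covariate they differed by 0.077 and 0.11. The second Yap1 probe set had the opposite sign, -0.093.

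**Figure D4:**
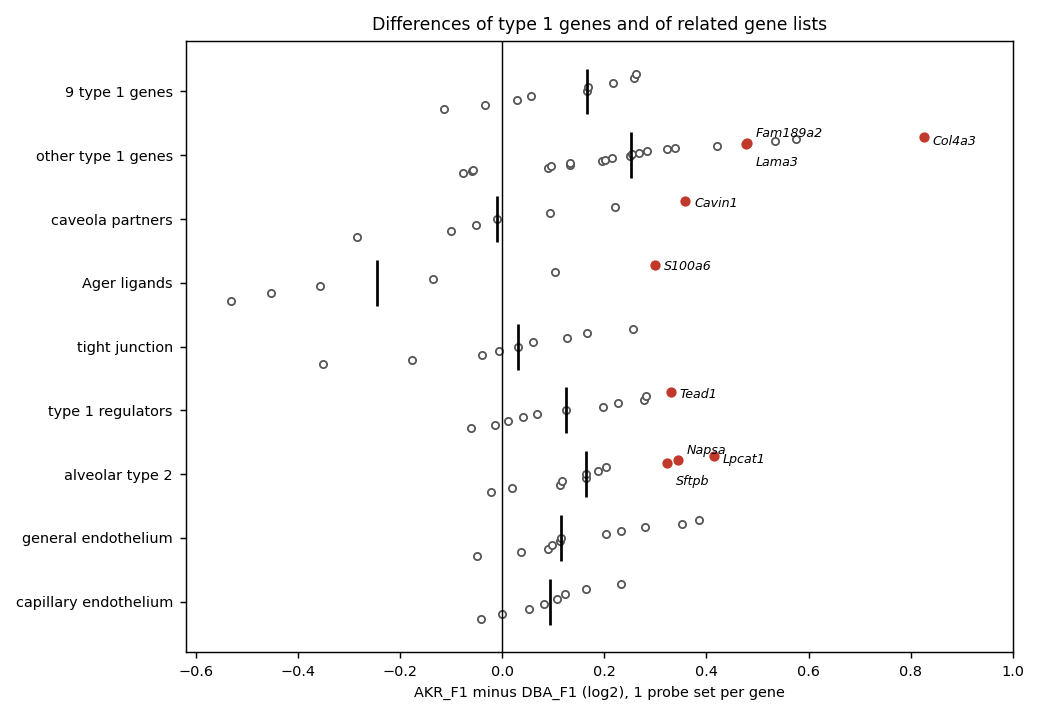
Difference between AKR_F1 and DBA_F1 lung (log2, horizontal axis) for the genes of each list, 1 probe set per gene. Red points are genes called at an adjusted p under 0.05, open points were not called, and the black bar is the median of the list. None of the 9 type 1 genes is called, and their median of 0.17 lies near that of the alveolar type 2 list.

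Lists of other lung cell types lay on both sides of 0. The medians were 0.17 for the 9 genes, 0.16 for 11 measured alveolar type 2 genes, 0.12 for 11 general endothelial genes and 0.094 for 8 capillary genes. They were below 0 for 8 fibroblast genes (-0.12), 7 ciliated cell genes (-0.20), 8 smooth muscle genes (-0.36) and 6 club cell genes (-0.46). Of the type 2 genes, 3 were called higher in AKR_F1 (Sftpb, Napsa and Lpcat1) and 0 lower, against 1.42% and 1.06% of all tested genes. Their limma adjusted p were close to the threshold, at 0.0371 to 0.0452. Other probe sets of Lpcat1 differed by 0.41, 0.35 and -0.15 and were not called (adjusted p of 0.0969, 0.123 and 0.531). Another Napsa set differed by 0.20 and was not called (adjusted p = 0.386). For 5 type 2 genes and 4 general endothelial genes every AKR_F1 array was above every DBA_F1 array, against 14.2% of all tested genes. The club cell list averaged 11.68, 12.13 and 11.88 log2 in AKR_F1 against 12.72, 12.66 and 12.29 log2 in DBA_F1. Those groups did not overlap, and the secretoglobin Scgb3a1 was called lower in AKR_F1 (-1.21, limma adjusted p = 0.0323). AKR_F1 replicate 3 was below the mean of the other AKR_F1 arrays by 0.16 log2 in the 9 genes, by 0.098 log2 in type 2 genes and by 0.16 log2 in general endothelial genes. The difference between these lists was not tested.

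Among the 9 genes, Emp2 and Ager followed the mean of the other 8 most closely, with root mean square distances of 0.041 and 0.044 log2 over the 6 arrays. Pdpn was the farthest, at 0.13 log2. Of the 9 genes, 6 had their lowest value on DBA_F1 replicate 2. Outside the 9 genes, the array profiles nearest to their mean were those of Stard9, Fem1c, Rmdn2, Ctnna1, Pros1 and Piga, at distances of 0.012 to 0.019 log2 over 6 arrays, among 12199 genes with enough spread to be compared.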

How the data were processed

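The deposited values are log2 signals, 1 per probe set and array. Per the submitters' processing notes MAS5 and RMA were named, without versions and without saying which of them made the table, so the log2 scale was read from the values, and no further normalization was applied to the table. Gene symbols came from the platform annotation, updated through gene IDs in RefSeq's GRCm38.p6 table. Of the probe sets, 34945 had 1 symbol, 932 several and 9160 none, and 64 control sets were left out. The lowest 40% by mean over the 6 arrays (4.72 log2 or less) were not tested.

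Groups were compared with limma 3.58.1 in R 4.3.3 (lmFit, eBayes with a trend, two-sided, group as the only term), with Benjamini-Hochberg adjustment over all 27022 tested probe sets. The fit was tested on simulated data. A gene was represented by its brightest tested probe set. The named genes are the 9 members, up to 4 genes with the smallest unadjusted p in each other list, and the 6 nearest profiles by root mean square distance among genes with at least 0.5 times the SD of the members' mean profile. Cav2, S100a8 and Vegfa were named outside this rule. The dimmer probe set of Spock2 and others of named genes were added after their values were seen. The members and lists were chosen with earlier results of these data known. Alternatives were other scalings, filters and eBayes settings, weights per array, a block for replicate numbers, 2 covariates, other summaries of a gene, and leaving out arrays.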

Additional observations from a re-analysis of the deposited data

How the results depend on the processing

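Over all tested probe sets 707 were called, against 1198 with array weights, 261 with the squamous mean as a covariate, 8 with the adipocyte mean as a covariate, 85 for AKR_F1 replicate 3 alone against DBA_F1 (the lone array is taken to vary like DBA_F1), and 198 to 1171 with 1 array left out. The 0 called type 1 probe sets became 1 with the replicate number as a block (Clic5, adjusted p = 0.0449, where 1.99% of all were called) and 0 to 3 with 1 array left out. The 3 came without AKR_F1 replicate 3 (Clic5, Rtkn2 and Akap5, where 4.33% of all were called). The median of the 9 genes was 0.034 with the squamous covariate, 0.080 with the adipocyte covariate, 0.031 for AKR_F1 replicate 3 alone, 0.26 by the most variable probe set of each gene, and 0.12 to 0.20 with 1 array left out. The count of 3 called genes among the 22 further type 1 genes, for which alternatives were chosen after seeing the data, was 6 with array weights, 1 with the squamous covariate, 0 with the adipocyte covariate, 0 for AKR_F1 replicate 3 alone, and 1 to 8 with 1 array left out. Signs turned for Hopx with the squamous covariate (-0.0055) and AKR_F1 replicate 3 alone (-0.0067), for Cldn18 with the squamous (-0.084) and adipocyte (-0.071) covariates, AKR_F1 replicate 3 alone (-0.072) and 1 array left out (-0.039 to 0.088), and for Cav1 with 1 array left out (-0.064 to 0.0074). The causes were not tested. The adipocyte mean does not overlap between the groups. The squamous mean was low only on AKR_F1 replicates 1 and 2, so its fit is nearly that of AKR_F1 replicate 3 alone and not a separate check. Same-numbered arrays did not deviate together (correlations of 0.31, -0.23 and -0.050), so the numbers were not taken as pairs. Tead1 was called in 12 of 17 alternatives, Col4a3 in 15, Lama3 in 10, Fam189a2 in 9, and Cavin1 and S100a6 in 8 each. The number of arrays limits the precision.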

Other observations

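The mean of the 9 type 1 genes was also set against the mean of the alveolar type 2 genes on the same array. This log2 difference was -0.52, -0.52 and -0.58 in AKR_F1 against -0.54, -0.47 and -0.40 in DBA_F1, so the groups overlapped. Against the general endothelial genes it was 1.59, 1.57 and 1.58 in AKR_F1 and 1.66, 1.62 and 1.63 in DBA_F1, where AKR_F1 was the lower on every array. For the 22 further type 1 genes against type 2 genes it was -2.41, -2.33 and -2.43 in AKR_F1 and -2.54, -2.45 and -2.43 in DBA_F1. The vascular growth factor Vegfa, chosen after its values were seen, was called by its dimmer probe set (0.42 ± 0.075, limma adjusted p = 0.038) and not by its brighter one (0.28 ± 0.074, adjusted p = 0.111).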
